A study of Mus musculus with 5 samples.

Results

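The genes described here are 10 feedback inhibitors of MAP kinase signalling: the dual specificity phosphatase genes Dusp1, Dusp2, Dusp4, Dusp5, Dusp6 and Dusp10, the Sprouty genes Spry1 and Spry2, and the SPRED genes Spred1 and Spred2. They were taken by symbol from a table of 56691 genes, and each of the 10 symbols matched 1 Ensembl identifier. The set was chosen by its known role and with the differences between Fli1 KO and NTC in these same libraries already in view, so those differences are described and not tested. RNA had been measured in natural killer (NK) cells of mouse spleen after CRISPR editing, in 3 libraries labelled Fli1 KO and 2 control libraries labelled NTC. Fli1 is an ETS-family transcription factor. The sources used here do not give strain, age, guide sequences, culture conditions or the number of animals, or say whether the replicates came from separate animals, so the spread between libraries may be technical. The share of cells that carried an edit is likewise not stated.

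MAP kinase signalling runs from a receptor through Ras, RAF and MEK to ERK, and through parallel kinases to p38 and JNK. It is switched off in part by proteins whose genes the pathway itself induces. Dual specificity phosphatases of the MAP kinase phosphatase (MKP) class remove the activating phosphates from ERK, p38 or JNK, each with its own preference, while Sprouty and SPRED proteins act higher up, at or above RAF. In NK cells the pathway is engaged by cytokine receptors and by activating receptors and contributes to granule release and cytokine production.

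Promoters of 5 members are shown first, because 4 of them belong to the genes that were higher in Fli1 KO (Dusp5, Dusp1, Dusp6 and Spry2) and 1 to an expressed phosphatase gene with a smaller difference (Dusp2). Each is the 250 bases before the RefSeq start of transcription (GRCm38.p6), written 5′ to 3′ along the gene. Capitals mark matches on either strand to the cyclic AMP response element TGACGTCA or its shorter core TGACG, to the EGR motif GCGNGGGCG, or to the CArG box bound by serum response factor. The AP-1 motif TGANTCA, the ETS motif CCGGAA and the longer FLI1 motif ACCGGAAGT were also searched and had no match in these windows. Only these exact letters were searched. The shorter ETS core GGAA was not, so other forms of ETS site may be present.
Dusp5 promoter, chr19:53528895-53529144, plus strand: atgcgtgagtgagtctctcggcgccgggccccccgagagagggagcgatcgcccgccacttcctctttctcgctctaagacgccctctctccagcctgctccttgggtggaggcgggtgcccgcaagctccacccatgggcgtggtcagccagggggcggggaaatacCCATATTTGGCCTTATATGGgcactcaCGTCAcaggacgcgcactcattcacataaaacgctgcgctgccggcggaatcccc
Dusp1 promoter, chr17:26508473-26508722, minus strand: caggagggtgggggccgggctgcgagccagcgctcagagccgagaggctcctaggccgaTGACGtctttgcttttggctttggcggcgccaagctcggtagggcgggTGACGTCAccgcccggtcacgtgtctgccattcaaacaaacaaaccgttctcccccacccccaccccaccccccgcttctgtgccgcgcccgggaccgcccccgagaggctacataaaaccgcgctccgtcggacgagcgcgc
Dusp6 promoter, chr10:99262981-99263230, plus strand: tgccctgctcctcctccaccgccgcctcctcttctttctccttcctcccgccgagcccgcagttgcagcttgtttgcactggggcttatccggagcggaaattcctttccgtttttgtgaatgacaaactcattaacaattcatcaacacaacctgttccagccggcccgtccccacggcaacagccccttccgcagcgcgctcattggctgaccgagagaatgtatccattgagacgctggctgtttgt
Spry2 promoter, chr14:105896820-105897069, minus strand: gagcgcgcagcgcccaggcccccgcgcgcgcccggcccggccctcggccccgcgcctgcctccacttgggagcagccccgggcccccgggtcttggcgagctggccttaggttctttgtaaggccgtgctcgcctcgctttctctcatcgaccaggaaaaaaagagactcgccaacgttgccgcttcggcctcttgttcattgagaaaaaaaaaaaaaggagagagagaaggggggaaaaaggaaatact
Dusp2 promoter, chr2:127335909-127336158, plus strand: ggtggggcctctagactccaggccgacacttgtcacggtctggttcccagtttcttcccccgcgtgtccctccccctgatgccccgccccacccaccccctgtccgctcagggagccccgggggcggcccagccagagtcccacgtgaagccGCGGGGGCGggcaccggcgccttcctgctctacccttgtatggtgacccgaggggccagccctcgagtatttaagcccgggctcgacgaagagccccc

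Dusp5 carried 2 CArG boxes side by side, beginning 82 and 72 bases before the start. A CArG box was found in 1.47% of all 32851 promoter windows of this length, and 6 windows (0.0183%) held 2 or more. The full cyclic AMP response element stood in Dusp1 alone among the 9 members with a window, 143 bases before its start, and in 1.55% of all windows. The shorter core, which the full element contains, was in Dusp1, Dusp5 and Spred2, against 17.8% of all windows. The EGR motif was in Dusp2 (4.70% of all windows). None of the 9 windows held the AP-1 motif (6.75% of all), the ETS letters CCGGAA (12.0%) or the FOXO motif GTAAACA (3.17%). They also lacked the FLI1 motif (0.804% of all), which contains those ETS letters. The SP1 motif GGGCGG, left in lower case, was in 7 of 9 windows, but not in Dusp6 or Spry2, and in 32.7% of all. Member windows were richer in G and C (56.0% to 70.8%) than the median window (52.4%). A match is a description of the letters, not of binding, and Dusp4 had no window in the table used.

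The 5 libraries held 4718390 to 5643791 counts. Levels are in CPM, the count of a gene relative to its library's total after TMM scaling. Fli1 RNA was present in all of them, at 320 to 390 CPM in Fli1 KO and at 279 and 322 CPM in NTC. A whole-gene count does not check a small insertion or deletion, so directions rest on the labels. The 2 NTC libraries differed from each other more than any pair of Fli1 KO libraries did (chi-square per degree of freedom of 10.7 against 2.19 to 3.50 over genes), and results are therefore also given without each library. All 13 NK cell markers lay over 3 times background, the density of counts on olfactory and vomeronasal receptor genes. Of the 49 markers of other cells, 5 did (Cd28, Itgax, Il7r, Gata3 and Rora), and no marker list had a called gene. The summed level of the 6 markers of other innate lymphoid cells was 405 CPM in NTC 2, with Il7r at 117 CPM, and 184 to 197 CPM in the other 4 libraries. Their part in the results was not tested. In bulk RNA, more cells expressing a gene and more RNA per cell cannot be told apart.

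Of the feedback genes 4 stood higher in Fli1 KO: Dusp5 by 3.90-fold, Dusp1 by 2.84-fold, Dusp6 by 2.78-fold and Spry2 by 1.56-fold. The Spry2 difference was the least firm. Its call was lost without Fli1 KO 1, Fli1 KO 3 or NTC 2, or with library size alone. Dusp2, Spred2 and Dusp10 had smaller positive differences, Spred1 was close to equal, and Dusp4 and Spry1 were at background. In the all-gene test (edgeR's quasi-likelihood test, called at a Benjamini-Hochberg adjusted p under 0.05), 4 of the 10 members were called higher and 0 lower. Of all 30580 genes tested 0.546% were called, 0.458% higher and 0.0883% lower. As this contrast was known when the members were chosen, the calls are a description, and no p-values are given for them. In 6 members every Fli1 KO library lay above both NTC libraries, as in 11.9% of all tested genes and 26.3% of the 7603 tested genes over 3 times background. In the other 4 the groups overlapped.

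**Figure D1:**
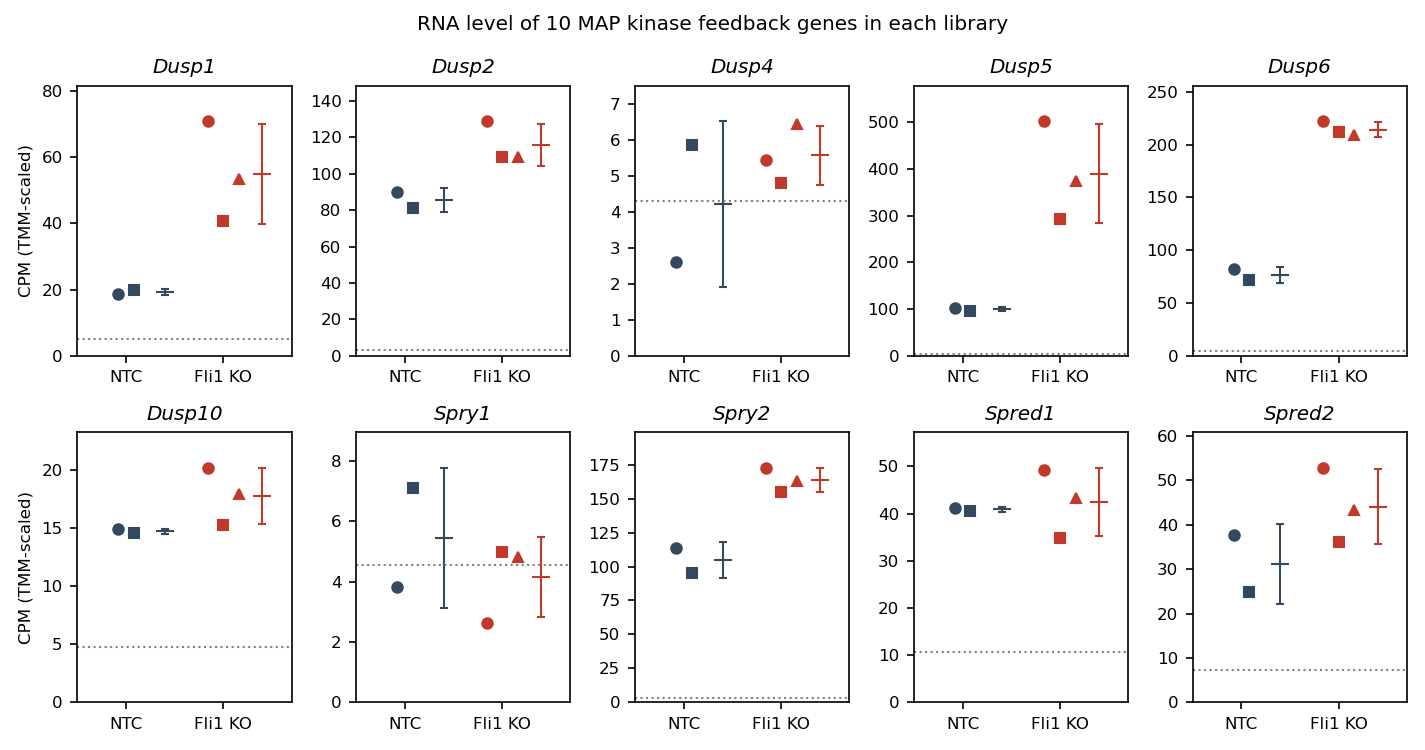
RNA level of the 10 feedback genes in CPM (vertical axes from 0, a scale of its own in each panel) in NTC (dark) and Fli1 KO (red) libraries. Circles, squares and triangles are replicates 1, 2 and 3, the bar beside them is the mean with its SD (n = 2 and n = 3), and the dotted line is the background expected from exon length. The groups of Dusp1, Dusp5, Dusp6 and Spry2 lie far apart relative to their spread, while Dusp4 and Spry1 scatter around the background line.

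The inducible phosphatases of the nucleus came first. Dusp5 encodes a nuclear phosphatase that acts on ERK (ENSMUSG00000034765, GRCm38 chromosome 19, 53529109 to 53542431, plus strand). Its level was 502, 293 and 374 CPM in Fli1 KO 1, 2 and 3 and 103 and 96.9 CPM in NTC 1 and 2. The lowest Fli1 KO library was well above both controls, and the 3 Fli1 KO libraries spread more widely (390 ± 105 CPM, SD, n = 3) than the 2 controls (99.9 ± 4.16 CPM, SD, n = 2). The log2 fold change was 1.96 (SE 0.19), the largest of the 10, and 1.75 to 2.15 with any 1 library left out. An antisense gene, AC137853.2, shares 547 bases (22.1%) of the Dusp5 exons. The strand setting of the counting is not given, so reads of the pair could be mixed. The antisense gene was listed at 5.64 to 9.10 CPM, which does not show how reads in the shared bases were assigned.

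Dusp1 encodes MKP-1, the classic immediate early phosphatase, which acts on p38 and JNK as well as ERK (ENSMUSG00000024190, chromosome 17, 26505590 to 26562128, minus strand). This GENCODE gene model spans 56.5 kb, and the RefSeq start used for the Dusp1 promoter lies inside it. In the counts table Dusp1 followed the same pattern as Dusp5. It stood at 70.8, 40.7 and 53.4 CPM in Fli1 KO 1, 2 and 3 and at 18.7 and 19.8 CPM in NTC 1 and 2. The groups did not overlap, and Fli1 KO 1 was again the highest library. The log2 fold change was 1.51 (SE 0.20; means 55.0 ± 15.1 and 19.3 ± 0.793 CPM, SD), and 1.29 to 1.71 with 1 library left out. The background expected for its length was 5.20 CPM, so Dusp1 was a low transcript in NTC.

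Dusp2 encodes PAC-1, a nuclear phosphatase of activated lymphocytes (ENSMUSG00000027368, chromosome 2, 127336159 to 127338376, plus strand). Its level was 129, 109 and 109 CPM in Fli1 KO and 90.2 and 81.1 CPM in NTC. The groups did not overlap, yet the gap was small, with a log2 fold change of 0.43 (SE 0.14), and the gene was not called. With the replicate number as a block it was called (0.47). In order of p among the members Dusp2 came next after Spry2, the last one called, at 0.64 (SE 0.14), and was not close to the threshold.

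Dusp4, which encodes the nuclear phosphatase MKP-2 (ENSMUSG00000031530, chromosome 8, 34807297 to 34819894, plus strand), could not be told from background. It had 27, 27 and 32 counts in Fli1 KO and 15 and 28 in NTC, or 4.82 to 6.45 and 2.60 to 5.85 CPM, where 4.30 CPM were expected from background alone. The groups overlapped, and the log2 fold change of 0.43 (SE 0.32) became −0.056 without NTC 1 and 1.09 without NTC 2. A difference in Dusp4 was not detectable at this level.

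Dusp6 encodes MKP-3, the cytoplasmic phosphatase that is selective for ERK and is widely used as a readout of ERK activity (ENSMUSG00000019960, chromosome 10, 99263231 to 99267489, plus strand). It stood at 222, 212 and 209 CPM in Fli1 KO 1, 2 and 3 and at 82.4 and 71.4 CPM in NTC 1 and 2. The Fli1 KO libraries were nearly level with one another (214 ± 7.02 CPM, SD, n = 3), unlike those of Dusp5 and Dusp1, and all lay far above NTC (76.9 ± 7.71 CPM, SD, n = 2). The log2 fold change was 1.48 (SE 0.14) and ranged from 1.39 to 1.60 with 1 library left out. Dusp5, Dusp1 and Dusp6 passed the threshold in each of the 5 fits that left out a library and in each of the 9 other settings tried.

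Dusp10 encodes MKP-5, which prefers p38 and JNK to ERK (ENSMUSG00000039384, chromosome 1, 184013302 to 184075636, plus strand). It was listed at 20.2, 15.3 and 17.9 CPM in Fli1 KO and at 14.9 and 14.6 CPM in NTC. Fli1 KO 2 was barely above NTC 1, and the log2 fold change of 0.27 (SE 0.19) was not called. The mean level was 3.47 times background.

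Spry2 encodes the Sprouty protein that is itself phosphorylated after receptor stimulation and restrains Ras signalling (ENSMUSG00000022114, chromosome 14, 105891947 to 105896819, minus strand). Its level was 173, 155 and 163 CPM in Fli1 KO and 114 and 95.5 CPM in NTC. The groups did not overlap (163 ± 8.96 and 105 ± 13.0 CPM, SD). The log2 fold change of 0.64 ranged from 0.53 to 0.79 with 1 library left out. Without Fli1 KO 1 (0.61), Fli1 KO 3 (0.66) or NTC 2 (0.53) it was no longer called, nor was it when libraries were scaled by size alone (0.51).

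Spry1, the related gene that restrains Ras signalling in many tissues (ENSMUSG00000037211, chromosome 3, 37639947 to 37644598, plus strand), was at background. It had 13, 28 and 24 counts in Fli1 KO and 22 and 34 in NTC, or 2.62 to 4.99 and 3.81 to 7.10 CPM against 4.56 CPM expected. Its log2 fold change of −0.36 (SE 0.33) became 0.14 without NTC 2, and the groups overlapped. A gene model of unproven status on the opposite strand, Gm42922, shares 24.4% of the Spry1 exons and was listed at 3.43 to 5.65 CPM, so reads at this locus could not be assigned with confidence.

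The SPRED proteins bring the Ras GTPase activator neurofibromin to the membrane. Spred1 (ENSMUSG00000027351, chromosome 2, 117121374 to 117182279, plus strand) stood at 49.2, 34.8 and 43.3 CPM in Fli1 KO and 41.3 and 40.5 CPM in NTC. The NTC values fell inside the Fli1 KO range, and the log2 fold change was 0.051 (SE 0.16), with the sign turning when libraries were scaled by size alone (−0.081). Spred2 (ENSMUSG00000045671, chromosome 11, 19924375 to 20024026, plus strand) stood at 52.9, 36.0 and 43.3 CPM in Fli1 KO and 37.6 and 24.9 CPM in NTC. Fli1 KO 2 lay below NTC 1, so the groups overlapped. The log2 fold change was 0.48 (SE 0.18), not called, and it depended on the control used: 0.84 without NTC 1, where it was called, and 0.23 without NTC 2. It was also called with the replicate number as a block (0.51).

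**Figure D2:**
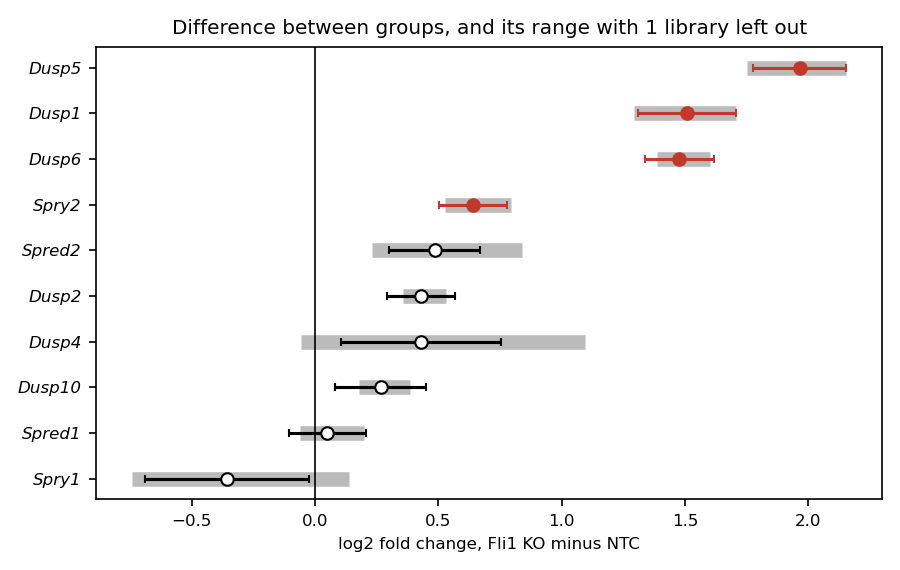
Log2 fold change of each member (Fli1 KO minus NTC) with its SE as a thin bar, filled red where the gene was called, and the range over the 5 fits that leave out 1 library as a grey band. Dusp5, Dusp1, Dusp6 and Spry2 stay to the right of 0 throughout, while the bands of Dusp4, Spred1 and Spry1 cross it.

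Within each group the libraries were ordered alike in most members. Fli1 KO 1 was the highest of the 3 Fli1 KO libraries in all 8 members over 3 times background, and in 58.6% of the 7603 tested genes at that level. Fli1 KO 2 was the lowest in 6 of the 8, and in 65.1% of those genes. NTC 1 was the higher control in 7 of the 8 (71.0% of those genes), with Dusp1 the exception.

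Levels were compared between genes per kb of exon. The libraries were made by probe capture, and how well each gene was captured was not measured, so the order between genes is provisional. In NTC the order was Spry2 (50.2 ± 6.25 CPM per kb, SD, n = 2), Dusp2 (42.7 ± 3.21), Dusp5 (40.4 ± 1.68) and Dusp6 (24.6 ± 2.46), followed by Spred2, Spred1, Dusp1 and Dusp10 between 6.76 and 4.85 and by Spry1 and Dusp4 at 1.88 and 1.54. Dusp2 and Dusp5 overlapped in NTC, as did Spred2 with Spred1, Spred1 with Dusp1, and Spry1 with Dusp4. In Fli1 KO the order was Dusp5 (158 ± 42.6 CPM per kb, SD, n = 3), Spry2 (78.3 ± 4.29), Dusp6 (68.4 ± 2.24), Dusp2 (57.7 ± 5.71) and Dusp1 (16.6 ± 4.57). Dusp5 was thus below Spry2 in NTC, where it could not be ranked against Dusp2, and above both in Fli1 KO. Dusp1 was above the ranges of Spred1 and Spred2 in Fli1 KO but could not be ranked against them in NTC, where its range (5.66 to 5.99) lay inside that of Spred2 (5.38 to 8.15). In Fli1 KO the ranges of neighbours overlapped only between Spred1 and Dusp10.

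**Figure D3:**
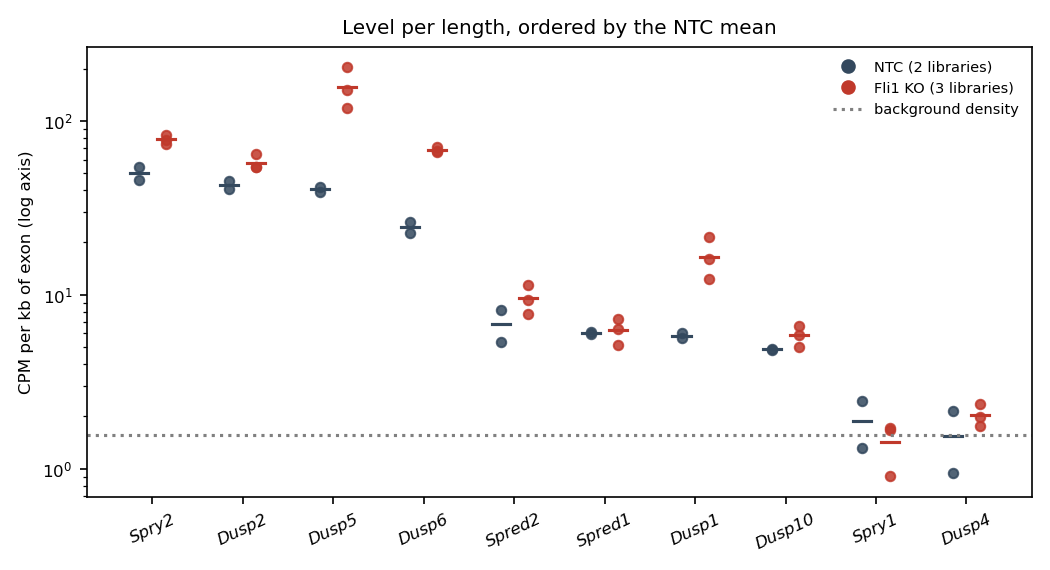
Level per kb of exon on a log axis for each member, ordered by the NTC mean, with 1 point per library and a bar at the group mean. The dotted line is the background density. Dusp5 lies below Spry2 in NTC and above it in Fli1 KO, and Spry1 and Dusp4 lie at the background line.

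The MKP class has 10 members, the 6 described and Dusp7, Dusp8, Dusp9 and Dusp16. Their summed level was 390, 275 and 314 CPM per kb in Fli1 KO 1, 2 and 3 and 148 and 139 CPM per kb in NTC 1 and 2. All Fli1 KO sums were above both NTC sums. Dusp5 made up 52.1%, 43.1% and 48.1% of the sum in Fli1 KO and 28.2% and 28.3% in NTC. The share of Dusp2 was 16.5% to 19.8% in Fli1 KO and 29.2% to 30.5% in NTC, although its own level was not lower. The share of Dusp6 was 18.2% to 24.6% against 16.5% to 17.8%. Among the 6 Sprouty and SPRED genes measured, by contrast, Spry2 held 73.5% to 76.8% of the summed level in Fli1 KO and 70.1% to 71.9% in NTC. These shares rest on the same contrast and are not tested. They also assume that each gene was captured equally well per kb.

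**Figure D4:**
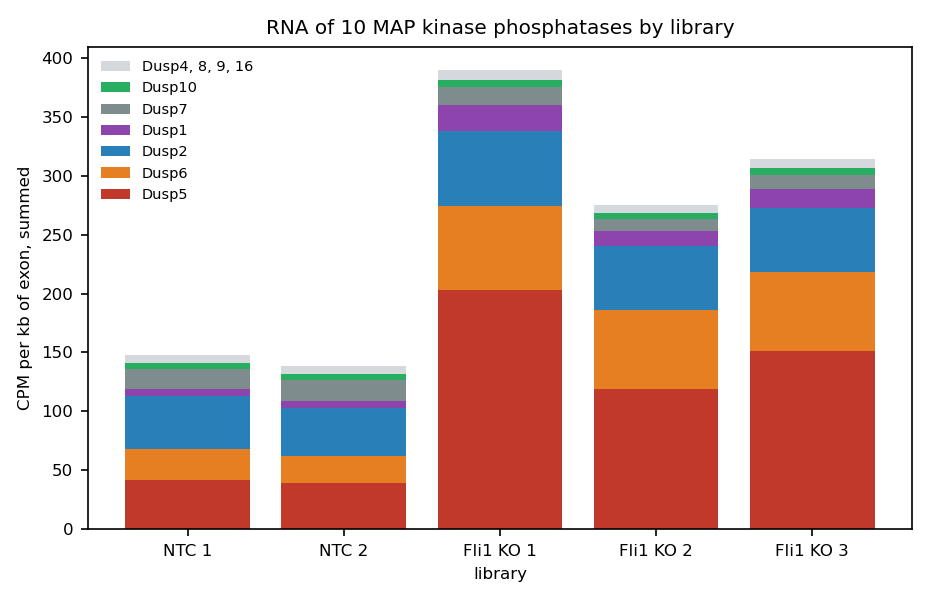
Summed RNA level of the 10 MKP genes in CPM per kb of exon (bars from 0), split by gene, for each library. The Fli1 KO bars reach 275 to 390 against 139 and 148 in NTC, and most of the added height belongs to Dusp5 (red) and Dusp6 (orange).

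For each member with a mean of at least 20 CPM, the gene with the most similar pattern was sought among 7451 others as the smallest root mean square difference of mean-centred log2 CPM over the 5 libraries. The nearest to Dusp5 was Junb, an AP-1 subunit (0.0795), to Dusp1 it was Fosl2, an AP-1 partner (0.0962), and to Dusp6 it was Egr2, a zinc-finger transcription factor (0.111). Egr2, like Dusp6, was nearly level across the Fli1 KO libraries (106, 95.1 and 94.5 CPM against 31.2 and 32.6 CPM in NTC). Fosl2 had the wider Fli1 KO spread of Dusp1 (376, 226 and 343 CPM against 113 and 112 CPM). Spry2 was nearest to Zfp292 (0.0192), Dusp2 to Zbtb38 (0.00390), Spred1 to Slc41a1 (0.0304) and Spred2 to Mrpl54 (0.0239). With 5 libraries and many candidates, a close match is a description only.

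The other genes of the pathway were read from 8 lists of 189 symbols, of which 184 matched and 183 were tested. Like the members, the lists were chosen with earlier results of these data known. Their counts and medians, and the p-values printed for their genes, are therefore a description only. For comparison, 0.458% of all 30580 tested genes were called higher and 0.0883% lower. An unadjusted edgeR p under 0.05 was found for 2735 of the 30580, and for 1389 of the 7603 over 3 times background. Among the remaining relatives, Spry4, another Sprouty gene, rose 1.74-fold, from 19.6 ± 1.17 CPM in NTC (SD, n = 2) to 34.3 ± 4.61 CPM in Fli1 KO (SD, n = 3). The log2 fold change was 0.80 with an SE of 0.17 (edgeR adjusted p = 0.0249). Its libraries read 39.1, 30.0 and 33.9 CPM in Fli1 KO and 20.5 and 18.8 CPM in NTC, without overlap. It was not called without Fli1 KO 1 (adjusted p = 0.256), Fli1 KO 3 (0.193) or NTC 2 (0.110), or by library size alone (0.0600). Over the other alternatives its adjusted p stayed under the threshold. Spred3 was at 1.04 times background and not called.

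None of the other 4 MKP genes was called by edgeR (0 of 4), by DESeq2 (0) or by limma-voom (0). In edgeR 2 of them, Dusp7 and Dusp8, had an unadjusted p under 0.05. Dusp7, a cytoplasmic ERK phosphatase closely related to Dusp6, lay on the other side: 51.2, 36.0 and 39.7 CPM in Fli1 KO and 59.6 and 60.6 CPM in NTC, which did not overlap (−0.51 ± 0.15 as log2 fold change ± SE, with an edgeR adjusted p of 0.203). With library size alone it was called lower (−0.64, adjusted p = 0.0272), as it was in a fit of genes over 3 times background (−0.63, 0.0321), and over all alternatives its adjusted p was 0.0119 to 0.735. Dusp8 and Dusp9 were below background and Dusp16 at 1.78 times. The list of atypical phosphatases holds mostly smaller enzymes without a MAP kinase docking domain, and also the relatives Styx and Styxl1. Of its 13 tested genes edgeR, DESeq2 and limma-voom each called 0, and edgeR gave 0 an unadjusted p under 0.05. Dusp14 had the smallest p (log2 fold change 0.51, adjusted p = 0.636), and Dusp11, the most abundant in CPM, was at 171 to 199 CPM in Fli1 KO and 144 and 173 CPM in NTC. The median log2 fold change of the 13 was −0.053, where that of all tested genes was −0.018 and that of tested genes over 3 times background was 0.11. That of the 10 members was 0.46.

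Upstream of the feedback genes, 0 of 36 receptors and adaptors were called by edgeR, DESeq2 or limma-voom. In edgeR 9 of the 36 had an unadjusted p under 0.05, beside 1389 of the 7603 tested genes over 3 times background. The median of the 36 was 0.061. Cd226, an activating adhesion receptor, had the smallest p (log2 fold change −0.71, edgeR adjusted p = 0.155). Its level in NTC was 46.6 and 82.1 CPM, and without NTC 1 the change was −1.05 (adjusted p = 4.1e-07), while without NTC 2 it was −0.25 (0.830). It was also called lower with library size alone (adjusted p = 0.0182), without a filter (0.0208) and with the replicate number as a block (2.0e-04). In the fit without NTC 1, edgeR called 4 receptors or adaptors higher and 2 lower.

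In the cascade from Ras to ERK, 1 of 37 genes was called higher and 0 lower, with a median of 0.12. This was Map2k1, which encodes the ERK kinase MEK1, at 111, 83.3 and 94.5 CPM in Fli1 KO and 64.7 and 47.2 CPM in NTC (1.71-fold, or 0.78 ± 0.16 as log2 fold change ± SE, with an edgeR adjusted p of 0.0202). It was not called without Fli1 KO 1 (0.286), Fli1 KO 3 (0.194) or NTC 2 (0.233). Without NTC 1, 2 genes of the cascade were called.

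In the p38 and JNK cascade 1 of 33 genes was called higher and 0 lower, with a median of 0.034. Gadd45g, which encodes an activator of the kinase MEKK4 upstream of p38 and JNK, rose 2.88-fold, from 29.0 ± 7.04 to 84.0 ± 10.7 CPM (1.52 ± 0.17 as log2 fold change ± SE, with an edgeR adjusted p of 1.3e-05). In the fit without NTC 1, 3 genes of this cascade passed. Mapk14, the p38 alpha gene, was at 115 to 130 CPM in Fli1 KO and 109 and 115 CPM in NTC.

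Among 24 Ras GTPase activators and other brakes on Ras and ERK, edgeR called 0 while DESeq2 and limma-voom each called 1. In edgeR 5 of the 24 had an unadjusted p under 0.05, beside 1389 of the 7603 tested genes over 3 times background. The median of the 24 was 0.053. Errfi1, which encodes the feedback inhibitor MIG6 of the EGF receptor family, stood at 349, 205 and 280 CPM in Fli1 KO and 134 and 82.5 CPM in NTC. The groups did not overlap and the log2 fold change was 1.35 (SE 0.26), but the edgeR adjusted p was 0.0856. DESeq2 gave an adjusted p of 0.0295 and limma-voom 0.00401, while edgeR with upper-quartile scaling gave 0.156. Among edgeR fits that kept both NTC libraries, it was called in these: without Fli1 KO 2 (1.55), with the replicate number as a block (1.35) and among genes over 3 times background (1.23). The log2 fold change was 1.77 without NTC 1 and 1.06 without NTC 2. Errfi1 passed there too, but those fits take the spread from the Fli1 KO libraries alone, so a call does not measure strength. In the fit without NTC 1, 3 brakes passed, all higher.

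Of 34 tested transcripts known to be induced by ERK, 11 were called higher and 0 lower, with a median of 0.47. Over all tested genes 0.458% were called higher, and 1.71% of those over 3 times background. This list too was chosen with earlier results known, so its count, its median and the p-values of its genes are a description. The median of the 2 tested Sprouty and SPRED relatives was 0.41. Among genes over 3 times background the median was 0.90 for the ERK-induced transcripts and 0.56 for the feedback genes, where that of all 7603 such genes was 0.11. The 4 with the smallest adjusted p were the zinc-finger factor gene Egr1 (4.06), the early response genes Ier2 (2.34) and Ier3 (2.19), and Egr2 (1.63, SE 0.14), given as log2 fold changes, with Egr2 at an edgeR adjusted p of 7.3e-07. The other 7 called were Fos, Fosl2, Junb, Myc, Zfp36, Maff and Klf6, named after their values were seen. Fos was low, at a mean of 2.44 times background. The called genes of this list numbered 10 to 13 with any 1 library left out. Of the 34 genes, 20 (58.8%) had all Fli1 KO libraries above both NTC libraries. The share was 11.9% of all tested genes and 26.3% of those over 3 times background.

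**Figure D5:**
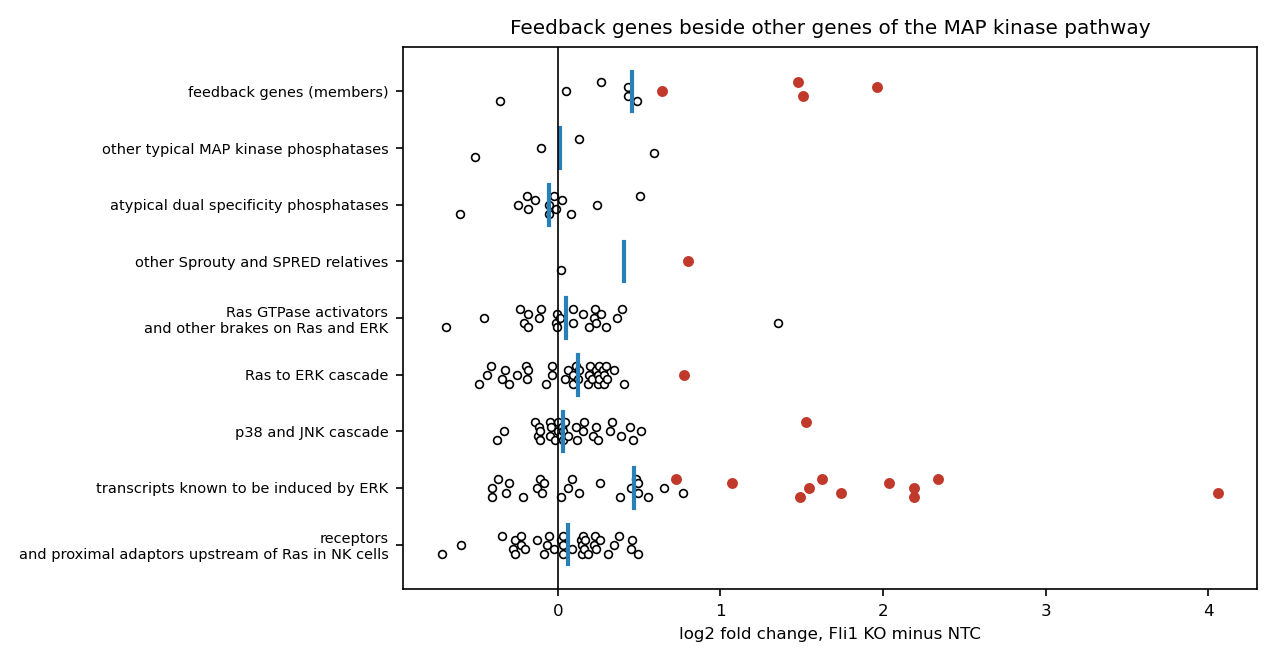
Log2 fold change (Fli1 KO minus NTC) of each tested gene in the feedback group and in the 8 pathway lists, with 1 circle per gene, filled red where called, and a blue bar at each median. The medians are 0.46 for the feedback genes and 0.47 for transcripts induced by ERK, and lie between −0.053 and 0.12 in the other lists of more than 2 tested genes.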

How the data were processed

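The deposited values are raw whole-number counts by Ensembl gene for 5 libraries made by probe capture from 10 ng of total RNA, per the labels' protocols. The submitters' processing notes name STAR 2.7.11, Trimmomatic 0.39, FastQC 0.12.0 and the build mm10. No source used here gives the counter, its strand setting or its annotation release. Of 56691 IDs, 52073 had a symbol. Places and exon lengths came from GENCODE M21 (GRCm38, also called mm10), and promoters from a RefSeq table (GRCm38.p6), which held 9 of the 10 members.

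Genes were kept with edgeR's filterByExpr (minimum count 10), which left 30580. After TMM scaling, the groups were compared by the quasi-likelihood test of edgeR 4.0.16 (robust option, R 4.3.3), adjusted with Benjamini-Hochberg over all tested genes. The SE is the fitted coefficient divided by the square root of its F statistic. Background was the count per kb on 1453 autosomal olfactory and vomeronasal receptor genes, scaled to each gene's exon length. It is assumed that this density holds for all genes.

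The members and the lists were chosen with earlier results of these data known. Text names Fli1, all members, up to 4 called genes per list with the smallest adjusted p (or the gene with the smallest p), and the nearest pattern of each member of at least 20 CPM. A few others are named as examples. The fit was tested on simulated data. Alternatives were DESeq2 1.42.0, scaling by its size factors, by upper quartiles or by library size alone, keeping all genes or those with 5 CPM in 2 libraries, each library left out, the replicate number as a block and limma-voom (limma 3.58.1). A fit of genes over 3 times background was added after seeing the data.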

Additional observations from a re-analysis of the deposited data

How the results depend on the processing

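The count of called members was 3 to 6 over all settings, against 4, and Dusp5, Dusp1 and Dusp6 were called in each. Signs turned for 3 members that were not called: Dusp4 ranged from −0.056 (without NTC 1) to 1.09 (without NTC 2), Spry1 from −0.74 (without NTC 1) to 0.14 (without NTC 2) and Spred1 from −0.060 (without Fli1 KO 1) to 0.20 (without Fli1 KO 2), with Spred1 also at −0.081 with library size alone and at −0.074 in the fit of genes over 3 times background. The 167 calls over all genes became 295 without a filter and 49 to 877 with 1 library left out (49 without Fli1 KO 1, 64 without Fli1 KO 3, 877 without NTC 1). They were 140 higher and 27 lower, but 92 and 71 with library size alone, which moved the median of all genes from −0.018 to −0.14, and 137 and 59 among genes over 3 times background.

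With library size alone, calls were 1 among the other MKP genes, 1 among brakes on Ras, 1 among receptors and 0 among Sprouty and SPRED relatives. Among genes over 3 times background they were 1, 2, 1 and 1. Receptors had 1 call without a filter. Brakes on Ras had 1 call by DESeq2 and 1 by limma-voom. With 1 library left out, calls ranged from 0 to 3 among brakes on Ras, 0 to 2 in the Ras to ERK cascade, 0 to 1 among Sprouty and SPRED relatives, 1 to 3 in the p38 and JNK cascade, and 0 to 6 among receptors. Fits without NTC 1 or NTC 2 take the spread from the Fli1 KO libraries alone, so their counts of calls do not measure strength.

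With the replicate number as a block, 921 genes were called, with 6 members (Dusp2 and Spred2 besides the 4), 1 other MKP gene, 4 brakes on Ras, 2 genes of the Ras to ERK cascade, 2 of the p38 and JNK cascade and 6 receptors. The labels do not say that a number marks a shared animal or day. Deviations from the group means correlated at 0.069 for the libraries numbered 1 and 0.14 for those numbered 2, over 2 pairs. With 2 NTC libraries the deviations mirror each other. Fli1 KO 1 with NTC 2 therefore gave −0.069, and Fli1 KO 2 with NTC 1 gave −0.14. These values cannot decide whether a number marks a shared source, and the main fit leaves the number out. Dusp4 and Spry1 had 13 to 34 counts a library and lay at 1.17 and 1.02 times background, so small changes in them could not be read.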
